A study of Homo sapiens with 12 samples.

Results

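The mitotic kinesins are motor proteins that build the spindle, move chromosomes on it and help to split the cell at the end of division. The genes described here are KIF2C, KIF4A, KIF11, KIF14, KIF15, KIF18A, KIF20A, KIF22, KIF23 and KIFC1. They were chosen by name, with earlier results of these data known. All 10 of 10 were measured, by 12 probe sets, among 11963 genes in all. A probe set is a group of short oligonucleotides on the array that reads 1 or more transcripts of a gene, and a gene's value is the mean of its probe sets. KIF2C and KIF22 had 2 probe sets each, and 0 of the 12 were listed for another gene.

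RNA came from RCC4, a cell line established from a human renal carcinoma of the clear cell type, collected 72 h after transfection with 40 pmol of siRNA. The 4 groups, each with 3 biological replicates on an array of their own, were cells given siRNA against MESH1 (siMESH1), siRNA against ATF4 (siATF4), both together (siMESH1+siATF4), and a non-targeting siRNA (siNT). MESH1, whose official symbol is HDDC3, encodes a phosphatase of NADPH, and ATF4 encodes a transcription factor that drives the integrated stress response. The groups share the cell line, culture medium, transfection reagent and time, and the siMESH1 arm rests on 1 siRNA sequence, so that an effect of the MESH1 loss and one of that sequence cannot be told apart. The siATF4 arm used a pool of several sequences. In its own analysis the study took genes changed by siATF4 alone as off-target and left them out. Its stated reason was the low ATF4 level of unstressed RCC4 cells. An effect of the ATF4 loss and an off-target one cannot be told apart here. How the 40 pmol were divided when both siRNAs were given is not stated in the sources used here.

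The values are log2 signals from which the mean of the 3 siNT arrays had been subtracted for each probe set, so every value is a difference from siNT and the siNT mean lies at 0. Levels of different genes cannot be compared on this scale, and the labelled cell type cannot be checked against its markers. A gene was called when its limma p, adjusted by Benjamini-Hochberg over all 11963 genes, was under 0.05 and its log2 difference was at least 0.5, which is about 1.4-fold. Array medians over all probe sets, controls included, lay between -0.00861 and 0.0313.

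ATF4, read by 1 probe set, was at -2.29, -2.33 and -2.30 in siATF4 arrays and at -2.27, -2.46 and -2.23 in siMESH1+siATF4 arrays. It was at -0.0151, -0.104 and 0.035 in siMESH1 arrays and at -0.101, 0.00298 and 0.0978 in siNT arrays. It thus fell 4.95-fold in siATF4 cells (adjusted p = 8.23e-10) and 5.01-fold in siMESH1+siATF4 cells (adjusted p = 1.64e-10) against siNT cells. HDDC3 had 0 probe sets with that symbol, so the silencing of MESH1 was not checked on these arrays.

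Kinesins use the energy of ATP to walk along microtubules or to take their ends apart. A dividing cell needs several at once: some push or hold the spindle poles, some act at microtubule ends or on chromosome arms, and others gather between the parting chromosomes, where the cell later divides. Most of these genes are transcribed mainly late in the cell cycle, and promoters of such genes often carry a CCAAT box, bound by NF-Y, and a cell cycle homology region (CHR), whose common form reads TTTGAA and which complexes such as DREAM and MYBL2-FOXM1 use.

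The promoters of 3 members are printed here because these members have the extreme responses described further on: KIF2C fell most and KIF22 least in siMESH1 cells, and KIF20A differed most between siMESH1+siATF4 and siMESH1 cells. The sequences are from RefSeq on GRCh38.p14, 250 bases before to 50 after the start, on the strand of the gene. Capitals mark a CCAAT box, the CHR form TTTGAA, its variant TTCGAA or the E2F-like motif TTGGCGC, in either orientation. KIF2C lies at chr1:44739587-44739886 on the + strand, KIF22 at chr16:29790501-29790800 on the + strand, and KIF20A at chr5:138178862-138179161 on the + strand.
KIF2C: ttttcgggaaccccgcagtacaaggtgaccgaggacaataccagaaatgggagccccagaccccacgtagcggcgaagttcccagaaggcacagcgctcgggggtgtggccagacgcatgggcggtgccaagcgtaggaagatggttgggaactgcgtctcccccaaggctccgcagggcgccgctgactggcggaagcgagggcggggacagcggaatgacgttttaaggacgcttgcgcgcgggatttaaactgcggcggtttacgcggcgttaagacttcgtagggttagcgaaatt
KIF22: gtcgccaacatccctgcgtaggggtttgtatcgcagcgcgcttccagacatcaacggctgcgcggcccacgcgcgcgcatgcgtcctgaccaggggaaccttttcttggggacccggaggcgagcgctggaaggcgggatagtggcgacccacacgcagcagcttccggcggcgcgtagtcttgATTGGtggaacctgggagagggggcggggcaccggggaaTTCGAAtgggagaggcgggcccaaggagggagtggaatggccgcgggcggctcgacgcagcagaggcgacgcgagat
KIF20A: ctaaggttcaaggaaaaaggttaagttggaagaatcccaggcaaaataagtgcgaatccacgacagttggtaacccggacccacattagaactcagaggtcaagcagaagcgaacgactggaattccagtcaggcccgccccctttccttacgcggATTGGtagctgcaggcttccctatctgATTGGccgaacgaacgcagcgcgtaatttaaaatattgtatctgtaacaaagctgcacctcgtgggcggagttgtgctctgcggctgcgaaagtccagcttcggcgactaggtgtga

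KIF2C held none of the 7 motifs searched. Forms of the CHR other than TTTGAA and TTCGAA were not among them. KIF22 held a CCAAT box at -66 and TTCGAA at -27 from the start, and KIF20A held a pair of CCAAT boxes at -94 and -67 with no TTTGAA in this window.

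In 4 other members a CCAAT box stood 20 to 40 bases upstream of TTTGAA. Their 130 bases around the start (110 before, 20 after) are shown for that spacing, a choice made after the motif positions were seen. Distances run from the first printed base of the CCAAT box to the first printed base of TTTGAA, in either orientation. The distance was 23 bases in KIF14 (chr1:200620732-200620861, - strand) and 25 in KIF11 (chr10:92593020-92593149, + strand). It was 35 in KIF18A (chr11:28108137-28108266, - strand) and 24 in KIF4A (chrX:70289994-70290123, + strand).
KIF14: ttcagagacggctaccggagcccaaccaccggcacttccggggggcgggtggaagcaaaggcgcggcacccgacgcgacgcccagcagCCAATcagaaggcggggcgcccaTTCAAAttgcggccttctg
KIF11: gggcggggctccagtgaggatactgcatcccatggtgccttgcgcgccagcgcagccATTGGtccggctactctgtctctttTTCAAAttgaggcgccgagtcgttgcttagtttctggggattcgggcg
KIF18A: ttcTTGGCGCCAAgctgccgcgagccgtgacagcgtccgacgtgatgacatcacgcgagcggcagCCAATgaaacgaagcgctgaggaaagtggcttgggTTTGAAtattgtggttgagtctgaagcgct
KIF4A: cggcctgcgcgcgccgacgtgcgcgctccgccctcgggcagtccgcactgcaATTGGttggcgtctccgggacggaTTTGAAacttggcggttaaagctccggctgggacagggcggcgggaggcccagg

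RefSeq listed 11 promoters for the 10 members, since KIF22 had 2 that overlap. TTTGAA was found in 7 of the 11, those of KIF4A, KIF11, KIF14, KIF15, KIF18A, KIF23 and KIFC1, against 15.2% of 35116 RefSeq promoters of the same 300 bases, and CCAAT in 8 of the 11 against 34.6%. TTCGAA was in both KIF22 promoters (1.45% of all), and the E2F-like TTGGCGC in KIF15 and KIF18A (3.04% of all). The other E2F-like motifs TTCGCGC (2.24% of all) and TTCCCGC (6.55%) and the ATF4-type motif TGATGNAA (3.62%) were in 0 of 11. Both strands were searched, and TTTGAA read backwards is TTCAAA. A match is only a stretch of letters, and no binding was measured here.

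The siMESH1 cells had all 10 kinesins lower than siNT cells, and so did the siATF4 and the siMESH1+siATF4 cells. Off-target effects of the siRNAs were not separated from the loss of their targets. Against siNT the median over the 10 was -1.95 in siMESH1 cells, -1.81 in siATF4 cells and -2.30 in siMESH1+siATF4 cells, where the median over all genes was 0.028, 0.0204 and 0.013 in the same order. Of all genes tested, 5.37% were called lower in siMESH1 cells, 4.03% in siATF4 cells and 5.25% in siMESH1+siATF4 cells. These 3 comparisons share the siNT arrays. In bulk RNA, fewer dividing cells and less kinesin RNA per dividing cell cannot be told apart.

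**Figure D1:**
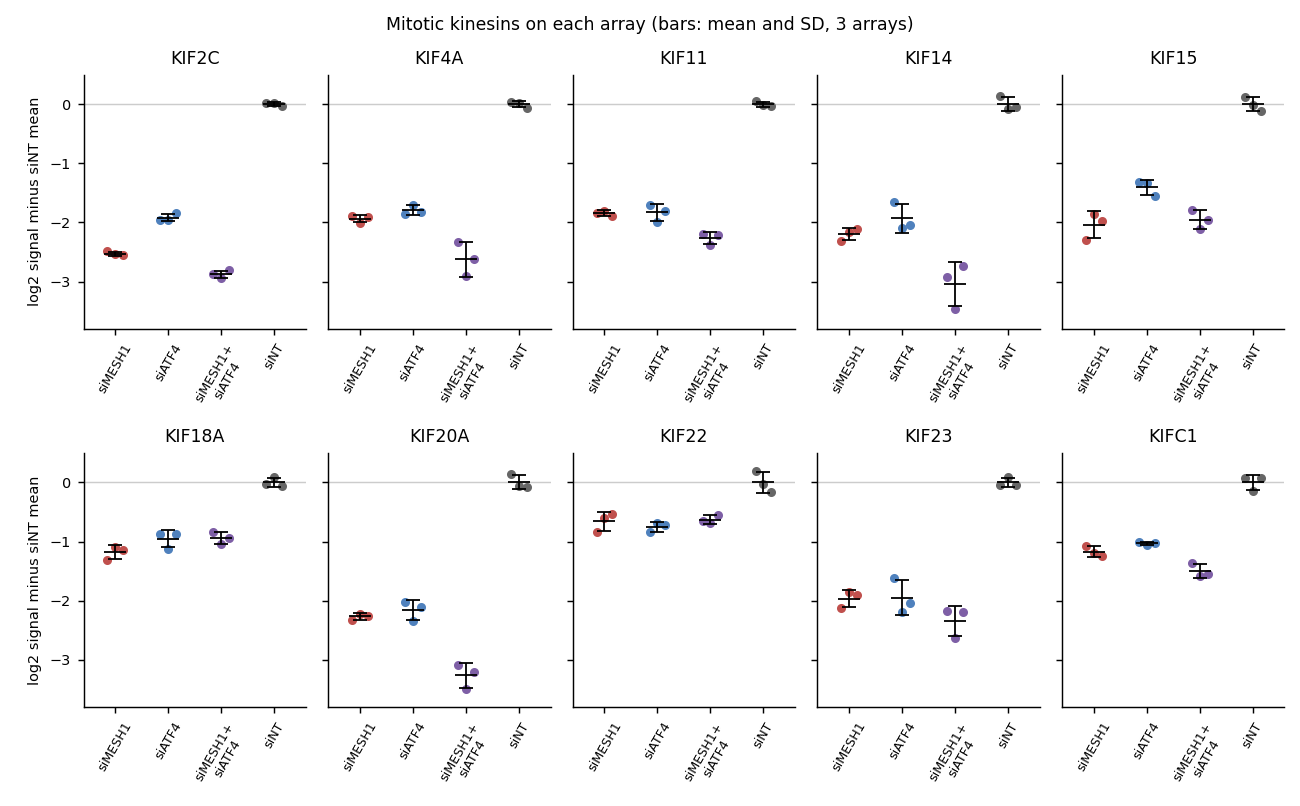
Log2 difference from the siNT mean for each of the 10 mitotic kinesins, with a point for each array and a bar for the group mean and SD (n = 3), in siMESH1, siATF4, siMESH1+siATF4 and siNT cells. For every kinesin the 9 arrays of the silenced groups lie below the 3 siNT arrays.

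The first role is that of the motors that keep the spindle bipolar or hold its poles. KIF11 (Eg5), which slides antiparallel microtubules apart and so separates the poles, was at -1.84, -1.80 and -1.89 in siMESH1 arrays, at -1.70, -1.99 and -1.80 in siATF4 arrays, at -2.20, -2.38 and -2.22 in siMESH1+siATF4 arrays, and at 0.0489, -0.0174 and -0.0315 in siNT arrays. The siMESH1 and siATF4 arrays overlapped, and those of the double silencing were the lowest. KIF11 fell 3.59-fold in siMESH1 cells (-1.84 ± 0.075, SE, adjusted p = 1.81e-09), 3.55-fold in siATF4 cells (adjusted p = 5.85e-09) and 4.81-fold in siMESH1+siATF4 cells (adjusted p = 2.58e-10) against siNT cells.

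KIF15, a kinesin-12 that can hold the poles apart when KIF11 is inhibited, was at -2.30, -1.86 and -1.97 in siMESH1 arrays, at -1.32, -1.33 and -1.55 in siATF4 arrays, at -1.79, -2.11 and -1.95 in siMESH1+siATF4 arrays, and at 0.125, -0.0173 and -0.108 in siNT arrays. The siATF4 arrays stood above the others of the silenced groups, and the arrays of siMESH1 and siMESH1+siATF4 overlapped. KIF15 fell 4.11-fold in siMESH1 cells (-2.04 ± 0.12, SE, adjusted p = 3.27e-08), 2.65-fold in siATF4 cells (adjusted p = 1.42e-06) and 3.86-fold in siMESH1+siATF4 cells (adjusted p = 3.82e-08).

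KIFC1 (HSET), a minus-end-directed motor that focuses the poles and clusters extra centrosomes, changed less. It was at -1.07, -1.20 and -1.24 in siMESH1 arrays, at -1.0, -1.05 and -1.03 in siATF4 arrays, at -1.37, -1.58 and -1.55 in siMESH1+siATF4 arrays, and at 0.0774, -0.153 and 0.0751 in siNT arrays. It fell 2.25-fold in siMESH1 cells (adjusted p = 1.16e-07), 2.04-fold in siATF4 cells (adjusted p = 5.37e-07) and 2.83-fold in siMESH1+siATF4 cells (adjusted p = 9.58e-09).

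The motors that act at microtubule ends differed widely. KIF2C (MCAK), which takes microtubule ends apart and helps to correct faulty attachments at the kinetochore, was at -2.49, -2.54 and -2.55 in siMESH1 arrays, at -1.96, -1.95 and -1.84 in siATF4 arrays, at -2.87, -2.93 and -2.81 in siMESH1+siATF4 arrays, and at 0.0135, 0.0248 and -0.0383 in siNT arrays. None of the 4 groups overlapped another. KIF2C fell 5.77-fold in siMESH1 cells (-2.53 ± 0.052, SE, adjusted p = 2.21e-11), 3.77-fold in siATF4 cells (adjusted p = 6.58e-10) and 7.32-fold in siMESH1+siATF4 cells (adjusted p = 4.61e-12).

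KIF18A, a kinesin-8 that damps the growth of kinetochore microtubules so that chromosomes align, was at -1.31, -1.09 and -1.14 in siMESH1 arrays, at -0.865, -1.12 and -0.88 in siATF4 arrays, at -0.831, -1.04 and -0.935 in siMESH1+siATF4 arrays, and at -0.0253, 0.0861 and -0.0607 in siNT arrays. Here the arrays of the double silencing were not the lowest. KIF18A fell 2.26-fold in siMESH1 cells (adjusted p = 2.73e-07), 1.94-fold in siATF4 cells (adjusted p = 2.65e-06) and 1.91-fold in siMESH1+siATF4 cells (adjusted p = 1.96e-06).

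Next come the motors on chromosome arms. KIF4A, a chromokinesin that shapes chromosomes and later limits the growth of midzone microtubules with PRC1, was at -1.89, -2.01 and -1.91 in siMESH1 arrays, at -1.85, -1.70 and -1.83 in siATF4 arrays, at -2.33, -2.91 and -2.62 in siMESH1+siATF4 arrays, and at 0.0343, 0.027 and -0.0613 in siNT arrays. It fell 3.82-fold in siMESH1 cells (adjusted p = 3.74e-08), 3.46-fold in siATF4 cells (adjusted p = 1.3e-07) and 6.15-fold in siMESH1+siATF4 cells (adjusted p = 1.84e-09). KIF4B, a near-identical copy of KIF4A, had no row of its own in the platform annotation used here, so signal from it may be counted under KIF4A.

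KIF22 (Kid), which pushes chromosome arms away from the poles, changed least by the mean of its probe sets. It was at -0.834, -0.597 and -0.535 in siMESH1 arrays, at -0.841, -0.693 and -0.714 in siATF4 arrays, at -0.646, -0.694 and -0.551 in siMESH1+siATF4 arrays, and at 0.195, -0.0261 and -0.169 in siNT arrays. The 3 silenced groups overlapped each other. KIF22 fell 1.58-fold in siMESH1 cells (adjusted p = 0.000156), 1.68-fold in siATF4 cells (adjusted p = 6.68e-05) and 1.55-fold in siMESH1+siATF4 cells (adjusted p = 0.000188). Its probe sets disagreed, as described below. By 202183_s_at alone KIF22 was at -1.18 in siATF4 cells and -1.24 in siMESH1+siATF4 cells. KIF18A fell less in both, with -0.955 and -0.935.

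The last role is that of the motors of the central spindle and of cytokinesis. KIF20A (MKLP2), which carries the chromosomal passenger complex with Aurora B to the midzone, was at -2.33, -2.22 and -2.25 in siMESH1 arrays, at -2.02, -2.34 and -2.10 in siATF4 arrays, at -3.08, -3.49 and -3.20 in siMESH1+siATF4 arrays, and at 0.135, -0.0657 and -0.069 in siNT arrays. The single silencings overlapped, and the double silencing lay below both. KIF20A fell 4.81-fold in siMESH1 cells (-2.27 ± 0.11, SE, adjusted p = 5.2e-09), 4.45-fold in siATF4 cells (adjusted p = 1.78e-08) and 9.58-fold in siMESH1+siATF4 cells (adjusted p = 2.35e-10), the largest fold of any of the 10 in any of the 3 comparisons with siNT.

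KIF14, which works with citron kinase at the midbody, was at -2.31, -2.16 and -2.11 in siMESH1 arrays, at -1.65, -2.09 and -2.05 in siATF4 arrays, at -2.92, -3.46 and -2.74 in siMESH1+siATF4 arrays, and at 0.14, -0.087 and -0.0526 in siNT arrays. All 3 arrays of the double silencing lay below every other array. KIF14 fell 4.58-fold in siMESH1 cells (adjusted p = 3.55e-07), 3.81-fold in siATF4 cells (adjusted p = 1.64e-06) and 8.22-fold in siMESH1+siATF4 cells (adjusted p = 1.45e-08).

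KIF23 (MKLP1), the motor of centralspindlin with RACGAP1, was at -2.12, -1.86 and -1.91 in siMESH1 arrays, at -1.62, -2.19 and -2.03 in siATF4 arrays, at -2.18, -2.63 and -2.19 in siMESH1+siATF4 arrays, and at -0.0474, 0.0946 and -0.0473 in siNT arrays. Its siATF4 arrays spread over both other silenced groups. KIF23 fell 3.90-fold in siMESH1 cells (adjusted p = 3.52e-07), 3.85-fold in siATF4 cells (adjusted p = 5.37e-07) and 5.05-fold in siMESH1+siATF4 cells (adjusted p = 5.54e-08).

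In each of the 3 comparisons all 10 kinesins had every silenced array below every siNT array, which held for 20.8% of all genes with siMESH1, 18.6% with siATF4 and 20.2% with siMESH1+siATF4. The mean over the 10 was -1.78 in siMESH1 arrays (SD 0.0624), -1.57 in siATF4 arrays (SD 0.0819) and -2.14 in siMESH1+siATF4 arrays (SD 0.161), n = 3 each. In siMESH1 cells KIF2C stood apart from the next in the order of falls, while the arrays of neighbours overlapped throughout KIF20A, KIF14, KIF15, KIF23, KIF4A and KIF11. KIF18A and KIFC1 lay above KIF11 and overlapped each other, and KIF22 lay above KIFC1. In siATF4 cells the neighbours from KIF20A to KIF4A overlapped. KIF15 fell less than KIF4A and more than KIFC1, and its arrays overlapped those of neither. In siMESH1+siATF4 cells the order began with KIF20A, KIF14, KIF2C, KIF4A, KIF23 and KIF11, whose neighbours overlapped, and from KIF11 on each of KIF15, KIFC1, KIF18A and KIF22 was separate from the one before. KIF22, KIF18A and KIFC1 had the smallest falls in every silenced group.

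The scale of these falls depends on what is taken as unchanged. The mean of 11 housekeeping genes measured was -0.331 in siMESH1 cells, -0.148 in siATF4 cells and -0.221 in siMESH1+siATF4 cells, and TFRC (-1.17), HPRT1 (-0.66) and PGK1 (-0.53) were themselves called lower in siMESH1 cells. With each array set to those genes, every kinesin stayed below siNT, but KIF22 was no longer called in siMESH1 cells (-0.32) or in siMESH1+siATF4 cells (-0.41). The same scaling turned the balance over all genes: of all calls against siNT, the lower ones made up 10.3% for siMESH1 (65.6% on the deposited scale), 32.2% for siATF4 (61.8%) and 19.8% for siMESH1+siATF4 (54.4%), and 2.43%, 2.71% and 3.11% of the genes tested were called lower. The calls of the other 9 kinesins held under this scaling.

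The 2 probe sets of KIF22 disagreed. The first, 202183_s_at, was called lower in siMESH1 cells (-1.02, adjusted p = 4.33e-06), siATF4 cells (-1.18, adjusted p = 1.65e-06) and siMESH1+siATF4 cells (-1.24, adjusted p = 5.86e-07), with p adjusted over all probe sets. The second, 216969_s_at, was not called in any of the 3, with -0.29 (adjusted p = 0.098), -0.32 (adjusted p = 0.0795) and -0.016 (adjusted p = 0.944) in the same order. Both probe sets of KIF2C were called in all 3, with 209408_at at -2.72, -2.16 and -3.14 and 211519_s_at at -2.33, -1.67 and -2.60. The share of all probe sets called lower was 5.43% for siMESH1, 4.19% for siATF4 and 5.47% for siMESH1+siATF4. The gene value of KIF22 is the mean of a probe set that was called and a probe set that was not.

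**Figure D2:**
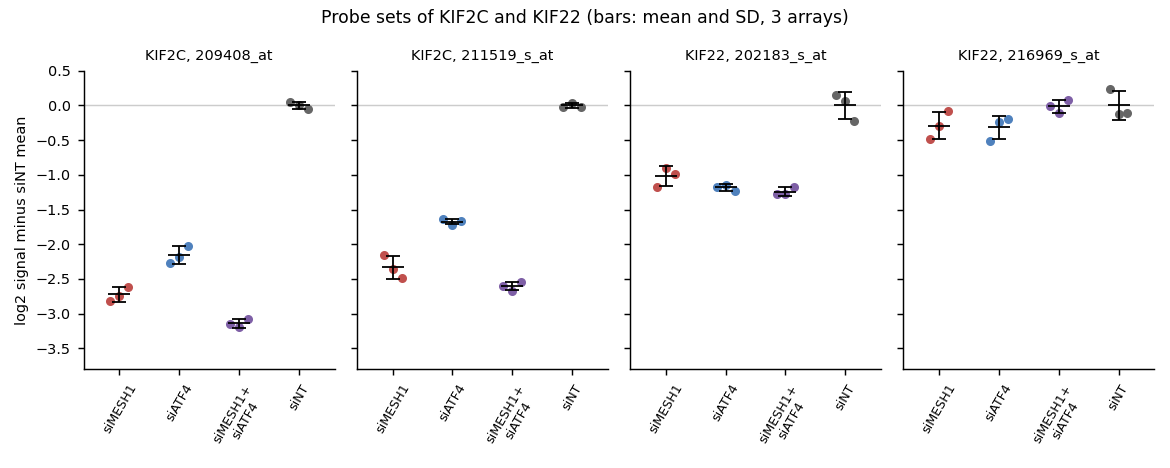
Log2 difference from the siNT mean for each probe set of KIF2C and KIF22, with a point for each array and a bar for the group mean and SD (n = 3), in siMESH1, siATF4, siMESH1+siATF4 and siNT cells. The KIF2C probe sets fall together, whereas 216969_s_at of KIF22 stays near 0 in siMESH1+siATF4 cells (-0.016) and 202183_s_at lies at -1.24.

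Adding ATF4 silencing to MESH1 silencing lowered 3 of the 10 further. Against siMESH1 cells, KIF20A was at -0.995 (95% interval -1.22 to -0.77, adjusted p = 1.51e-05), KIF14 at -0.85 (adjusted p = 0.00161) and KIF4A at -0.69 (adjusted p = 0.000474) in siMESH1+siATF4 cells. Of all genes, 2.68% were called lower in this comparison, or 44% of its calls (67.7% with housekeeping scaling). KIF11 (-0.42), KIF2C (-0.34) and KIFC1 (-0.33) had adjusted p values of 0.000882, 0.000278 and 0.00576 but missed the fold minimum, and KIF23 (-0.37) had an adjusted p of 0.0735. With housekeeping scaling KIF11 was called as well (-0.53). The remaining 3 were not lower: KIF22 differed by 0.026 (95% interval -0.18 to 0.23), KIF15 by 0.090 (-0.16 to 0.34) and KIF18A by 0.24 (0.060 to 0.43, adjusted p = 0.0483). For KIF18A every siMESH1+siATF4 array stood above every siMESH1 array, with a difference under the fold minimum. The KIF22 value is the mean of probe sets that disagreed, and 202183_s_at alone differed by -0.22 (limma adjusted p = 0.114).

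Adding MESH1 silencing to ATF4 silencing lowered 5 of the 10 further. Against siATF4 cells, KIF14 (-1.11, adjusted p = 0.000762), KIF20A (-1.11, adjusted p = 3.39e-05), KIF2C (-0.96, adjusted p = 5.93e-07), KIF4A (-0.83, adjusted p = 0.000447) and KIF15 (-0.55, adjusted p = 0.00865) were called lower in siMESH1+siATF4 cells, where 1.28% of all genes were, or 78.5% of the calls (55.4% with housekeeping scaling). KIFC1 (-0.47) and KIF11 (-0.44) missed the fold minimum, and KIF23 (-0.39) had an adjusted p of 0.108. KIF18A differed by 0.020 (95% interval -0.16 to 0.20) and KIF22 by 0.12 (-0.089 to 0.33). By 202183_s_at alone KIF22 differed by -0.062 (limma adjusted p = 0.776). The calls near the fold minimum turned on single arrays: KIF15 was lost without siMESH1+siATF4 replicate 2 (-0.46), KIF11 was called without siATF4 replicate 2 (-0.52), and KIFC1 was called without siMESH1+siATF4 replicate 1 (-0.53). KIF15 was also lost with housekeeping scaling (-0.47).

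Between the single silencings, 2 of the 10 differed. KIF15 (-0.64, adjusted p = 0.000846) and KIF2C (-0.61, adjusted p = 1.43e-06) were lower in siMESH1 cells than in siATF4 cells, where 4.75% of all genes were called lower, or 54.8% of the calls (22.7% with housekeeping scaling). KIF11 (-0.015, adjusted p = 0.91) and KIF23 (-0.016, adjusted p = 0.95) lay near 0, and the differences of the other 6 ran from -0.27 for KIF14 to 0.094 for KIF22. With arrays set to the housekeeping genes neither call held, since KIF2C stood at -0.43 and KIF15 at -0.45, and KIF4A, KIF11, KIF20A, KIF23 and KIFC1 turned to values above 0.

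**Figure D3:**
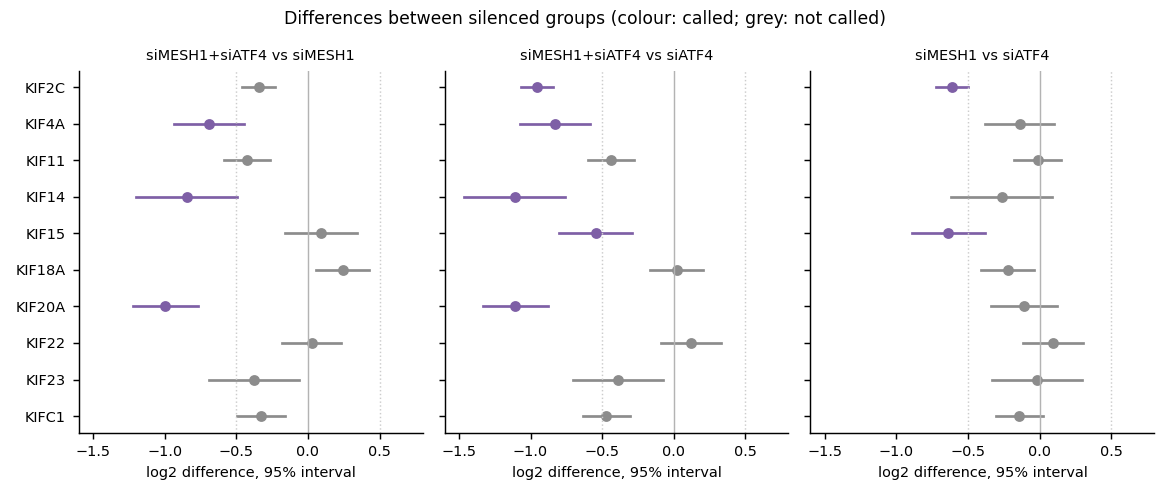
Log2 difference with its 95% interval for each of the 10 kinesins between silenced groups (called ones in colour, dotted lines at the fold minimum), in siMESH1+siATF4 against siMESH1, siMESH1+siATF4 against siATF4, and siMESH1 against siATF4 cells. KIF20A, KIF14 and KIF4A lie below -0.5 in both comparisons of the double silencing, and KIF18A and KIF22 lie at or above 0 in both. The KIF22 value is the mean of probe sets that disagreed, and 202183_s_at alone was at -0.22 and -0.062.

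The design also tests whether the effect of siMESH1 was the same with and without siATF4, as the difference between those 2 effects on the log2 scale. All 10 kinesins were called with a positive difference, where 3.46% of all genes were, and the median was 1.18 against -0.0205 over all genes. A positive value means that the double silencing lowered the gene by less than the sum of the single effects. Since levels were removed, it cannot be seen whether a signal near the array background kept a fall from going further. The dose of each siRNA in the double silencing is not known either. The part of background and dose in the positive values was not tested. The value was 1.57 for KIF2C (adjusted p = 4.88e-07), 1.57 for KIF23 (adjusted p = 0.000259), 1.49 for KIF15 (adjusted p = 6.94e-05) and 1.405 for KIF11 (adjusted p = 5.08e-06). KIF18A (1.198), KIF20A (1.16), KIF4A (1.10), KIF14 (1.08), KIF22 (0.78) and KIFC1 (0.70) had adjusted p values of at most 0.00847.

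For KIF2C the single effects sum to -4.44, or 21.8-fold, while siMESH1+siATF4 cells were at -2.87, or 7.32-fold below siNT. KIF20A, with the largest fall in the double silencing, had a sum of -4.42 (21.4-fold) and an observed difference of -3.26 (9.58-fold). KIF23 had a sum of -3.91 (15.01-fold) against an observed -2.34 (5.05-fold). For KIF18A (-0.94) and KIF22 (-0.63) the double silencing fell no further than either single silencing, with sums of -2.13 and -1.405. For KIF22 this holds for the mean of its probe sets, which disagreed. By 202183_s_at alone KIF22 was at -1.24 in siMESH1+siATF4, -1.02 in siMESH1 and -1.18 in siATF4 cells. Its differences from the single silencings were not called. With arrays set to the housekeeping genes KIFC1 no longer passed the fold minimum (0.44), and the lower calls over all genes made up 86.5% of the calls in place of 19.8%. In the fit over probe sets on the deposited scale, 216969_s_at of KIF22 had an adjusted p of 0.0521.

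**Figure D4:**
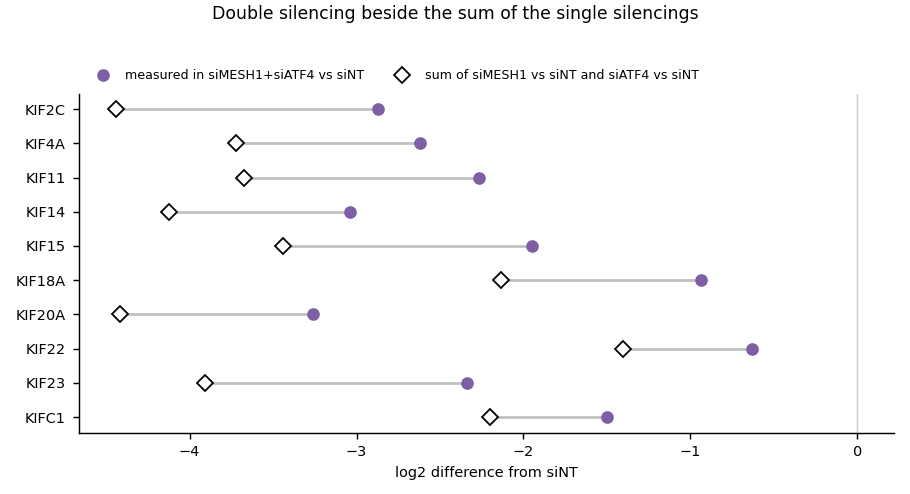
Observed log2 difference of siMESH1+siATF4 cells from siNT beside the sum of the siMESH1 and siATF4 differences, for each of the 10 kinesins. The observed fall is smaller than the sum for all 10, by 0.70 for KIFC1 up to 1.57 for KIF2C.

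Other motors were compared by lists. Of 5 further measured kinesins that were listed as mitotic, 3 fell in siMESH1 cells, 4 in siATF4 cells and 4 in siMESH1+siATF4 cells. Over all genes 5.37%, 4.03% and 5.25% were called lower in that order. The medians of the 5 were -1.29, -1.28 and -1.41. CENPE, the kinetochore motor that brings chromosomes to the equator, was at -1.93, -1.84 and -1.95 in siMESH1 arrays, at -1.61, -1.72 and -1.57 in siATF4 arrays, at -2.51, -2.58 and -2.33 in siMESH1+siATF4 arrays, and at -0.0647, 0.163 and -0.098 in siNT arrays. It fell 3.75-fold, 3.10-fold and 5.55-fold in the 3 silenced groups in that order. KIF18B, a partner of KIF2C at astral microtubule ends, fell by 1.78, 1.54 and 2.19, and KIF20B, a motor of late cytokinesis, by 1.30, 1.28 and 1.42 on the log2 scale. KIF2A, a depolymerase of the spindle poles that also acts in neurons, was at -0.35 in siMESH1 cells, below the fold minimum, and fell by 0.68 in siATF4 cells and 0.57 in siMESH1+siATF4 cells.

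Of the 20 measured genes in the list of other kinesins and light chains, 1 fell in siMESH1 cells, where 5.37% of all genes did. In siATF4 cells 2 fell (4.03% of all genes), and in siMESH1+siATF4 cells 2 did (5.25%). The medians were 0.0828, 0.0389 and 0.08, and the difference from the mitotic kinesins was not tested. KIF21B, a neuronal transport motor, was called in all 3 (-0.53, -0.81 and -0.81). KIF5B, the widely expressed heavy chain of conventional kinesin, was named after its values were seen: it was at 0.0967, 0.0677 and 0.249 in siMESH1 arrays, at -0.394, -0.662 and -0.74 in siATF4 arrays, at -0.689, -0.779 and -0.654 in siMESH1+siATF4 arrays, and at -0.00529, 0.00173 and 0.00356 in siNT arrays. It was low only where ATF4 was silenced, with 0.74 between siMESH1 and siATF4 cells (adjusted p = 1.42e-05). KIF3B, KIF3C and KIF5A stood at 0.41, 0.33 and 0.39 in siMESH1 cells, all under the fold minimum.

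The list of dynein, dynactin and associated factors had 20 measured genes, with a median of -0.00661 in siMESH1 cells. The strongest test in those cells was DYNC1I2 at 0.31 (limma adjusted p = 0.000178), under the fold minimum. DYNLT3, a dynein light chain, was the 1 gene of the list called in siATF4 cells (-0.91, adjusted p = 1.19e-07). It was also the 1 gene called in siMESH1+siATF4 cells (-0.52, adjusted p = 1.02e-05), and it was at 0.26 in siMESH1 cells. Of all genes, 4.03% were called lower in siATF4 cells and 5.25% in siMESH1+siATF4 cells, so 1 of 20 is near those shares.

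**Figure D5:**
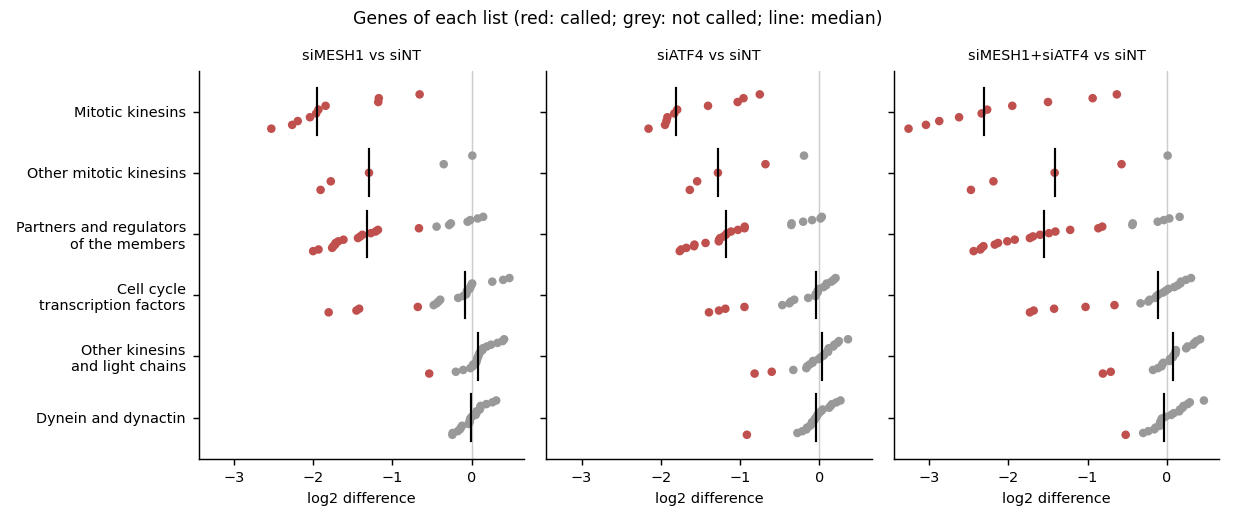
Log2 difference from siNT for each measured gene of the lists of mitotic kinesins, other mitotic kinesins, other kinesins and light chains, dynein and dynactin, partners and regulators, and cell cycle transcription factors, with a line at the list median and called genes in red, in siMESH1, siATF4 and siMESH1+siATF4 cells. The mitotic kinesins have medians of -1.95, -1.81 and -2.30, and the other kinesins and light chains have medians of 0.0828, 0.0389 and 0.08.

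Of 22 measured partners and regulators of the mitotic kinesins, 15 fell in siMESH1 cells, 16 in siATF4 cells and 16 in siMESH1+siATF4 cells. Over all genes 5.37%, 4.03% and 5.25% were called lower in that order. The medians of the 22 were -1.32, -1.17 and -1.54. CDK1 and CCNB1, the kinase and cyclin of mitotic entry that phosphorylate several of these motors, fell 4.00-fold and 3.35-fold in siMESH1 cells, 3.39-fold and 3.34-fold in siATF4 cells, and 5.42-fold and 5.06-fold in siMESH1+siATF4 cells. In siMESH1 cells PRC1, which bundles the midzone and recruits KIF4A, fell by 1.93, RACGAP1, the partner of KIF23, by 1.38, and AURKB and BIRC5 of the chromosomal passenger complex that KIF20A carries by 1.76 and 1.72. MKI67, a marker of proliferating cells, fell 2.70-fold in siMESH1 cells, 2.16-fold in siATF4 cells and 3.22-fold in siMESH1+siATF4 cells. Among the genes not called in siMESH1 cells were INCENP (-0.26), the scaffold of the chromosomal passenger complex, KPNB1 (-0.28), an import receptor, MAPRE1 (-0.050), which binds growing microtubule ends, and NEK7 (0.078), a kinase of spindle assembly. NEK7 was called lower in siATF4 cells (-0.94, adjusted p = 5.74e-07) and in siMESH1+siATF4 cells (-0.81, adjusted p = 1.33e-06). In the test of the double silencing against the sum, 15 of the 22 were called higher, where 3.46% of all genes were. The median of the 22 was 0.877.

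Of 20 measured transcription factors and cofactors of the cell cycle, 4 fell in siMESH1 cells, 4 in siATF4 cells and 5 in siMESH1+siATF4 cells. Over all genes 5.37%, 4.03% and 5.25% were called lower in that order. The medians of the 20 were -0.0861, -0.0453 and -0.115. FOXM1 and MYBL2, activators of late cell cycle genes, fell by 1.42 and 1.45 in siMESH1 cells, by 1.27 and 1.39 in siATF4 cells, and by 1.73 and 1.68 in siMESH1+siATF4 cells. E2F8, a repressor that is itself expressed in cycling cells, fell by 1.80, 1.18 and 1.42. E2F1, an activator of entry into S phase, fell by 0.68 in siMESH1 cells and 0.66 in siMESH1+siATF4 cells. In siATF4 cells E2F1 was at -0.47 (limma adjusted p = 0.00274), under the fold minimum. RBL1 (p107), a pocket protein that can sit in DREAM, fell by 0.94 in siATF4 cells and 1.03 in siMESH1+siATF4 cells. In siMESH1 cells RBL1 was at -0.48 (limma adjusted p = 0.00402), also under the fold minimum. TFDP2 was at 0.48, -0.38 and -0.21, under the fold minimum in all 3.

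The genes whose values over the 12 arrays lay closest to the mean of the 10 kinesins were BUB1B, a checkpoint kinase, with a root mean square difference of 0.0599, then TPX2 (0.0989), a spindle assembly factor, HJURP (0.102), the chaperone of centromeric CENP-A, CDCA8 (0.107), of the chromosomal passenger complex, and CCNA2 (0.109), which encodes cyclin A. TPX2 and CDCA8 also stand in the list of partners. Pearson's r to that mean ran from 0.993 to 0.998 over the 12 arrays, out of 11953 genes compared, and since the arrays fall into groups these values describe the group differences and carry no test.

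Beside these results stand the values of other cell types and of RNA quality. In siMESH1, siATF4 and siMESH1+siATF4 cells the medians were 0.12, 0.222 and 0.034 for 3 leukocyte markers, 0.0123, 0.136 and 0.0565 for 3 endothelial markers, and 0.0228, 0.17 and 0.0997 for 2 fibroblast markers. For ACTB, the 3′ control probe set less the 5′ one, a measure of RNA integrity relative to siNT, averaged -0.111 ± 0.149 in siMESH1 arrays, -0.293 ± 0.0819 in siATF4 arrays and -0.300 ± 0.133 in arrays of the double silencing (SD, n = 3 each). For GAPDH the same measure averaged 0.0775 ± 0.122, -0.0901 ± 0.0907 and -0.0221 ± 0.0845 in that order. The control genes thus had opposite signs in siMESH1 arrays and were both below 0 in the other silenced groups. In all silenced groups the GAPDH mean was smaller in size than its SD. The part of these measures in the falls was not tested.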

How the data were processed

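The deposited values are log2 signals of 12 Affymetrix human expression arrays, made by the authors with RMA in Affymetrix Expression Console (versions not given in the sources used here), from which the authors subtracted, per probe set, the mean of the 3 siNT arrays; the labels call the arrays biological replicates. RMA scales all arrays to 1 distribution, so a change shared by most genes would not be seen, and since levels were removed no filter on dim probe sets was possible. The number of arrays limits the precision, and the siNT mean of each probe set lay within 0.00012 of 0.

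Of 22277 probe sets, 62 controls, 1043 with several gene symbols and 2108 with none were left out, and 19064 were averaged to 11963 genes, with names updated through RefSeq for 19052. Genes were tested with limma 3.58.1 in R 4.3.3 (lmFit and eBayes, 1 mean per group, all 12 arrays, 8 residual and 4.32 prior degrees of freedom), adjusted by Benjamini-Hochberg over all genes; the fold minimum follows the study's methods. Alternatives were other fold minimums, scaling to housekeeping genes, another summary of probe sets, the methods' t-test, a replicate block and leaving out arrays. The fit was tested on simulated data.

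The members, lists and motifs were chosen with earlier results of these data known. From each list up to 4 genes with the smallest adjusted p in siMESH1 against siNT are named, with the 5 genes of nearest pattern; others (PRC1, RACGAP1, AURKB, INCENP, KPNB1, MAPRE1, NEK7, E2F1, RBL1, KIF5B, TFRC, HPRT1, PGK1) were named after their values were seen. No protein sequence was used here.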

Additional observations from a re-analysis of the deposited data

Results flagged for a closer look

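The effect of siMESH1 differed between cells with and without siATF4 for each of the 10 kinesins, by the limma test of that difference. The difference of the effects (siMESH1+siATF4 minus siATF4, less siMESH1 minus siNT) was 1.572 for KIF2C, 1.571 for KIF23, 1.494 for KIF15, 1.405 for KIF11, 1.198 for KIF18A, 1.159 for KIF20A, 1.103 for KIF4A, 1.082 for KIF14, 0.775 for KIF22 and 0.7009 for KIFC1. Leaving out single arrays kept all 10 called, with 0.9323 to 1.294 for KIF14 and 0.6366 to 0.7772 for KIFC1. No separate test for outlying arrays was run in these groups of 3. The part of array background and of the siRNA dose in the double silencing was not tested either.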

How the results depend on the processing

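Against siNT, 8 to 10 of the 10 kinesins were called under every alternative run, and in the test of the double silencing against the sum 8 to 10 were. The calls between silenced groups depended on the fold minimum, the test and the scaling. For siMESH1 against siATF4 cells (2 called), 0 were called with a log2 minimum of 1, 0 with housekeeping scaling and 1 with the methods' t-test after Benjamini-Hochberg adjustment. For siMESH1+siATF4 against siATF4 cells (5 called) the log2 minimum of 1 and the t-test left 2 each, and for siMESH1+siATF4 against siMESH1 cells (3 called) they left 0 and 1, while no minimum gave 7. Housekeeping scaling left 4 against siATF4, without KIF15 (-0.4726), and gave 4 against siMESH1, with KIF11 (-0.5332). Leaving out single arrays moved these 3 counts only for siMESH1+siATF4 against siATF4 cells, to 4 at the lowest and 6 at the highest. The 0 counts are of limma calls at adjusted p under 0.05 past the fold minimum, and the unadjusted t-test with the main fold minimum called 2 of the kinesins in siMESH1 against siATF4 cells and 3 in siMESH1+siATF4 against siMESH1 cells.

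Values near 0 that were not called changed sign. With housekeeping scaling KIF11 stood at 0.1684, KIF20A at 0.07279, KIF23 at 0.1667, KIF4A at 0.04193 and KIFC1 at 0.04142 in siMESH1 against siATF4 cells, and KIF15 at -0.01881 and KIF22 at -0.08369 in siMESH1+siATF4 against siMESH1 cells. By its first probe set alone, an alternative chosen after seeing the data, KIF22 stood at -0.223 against siMESH1 and -0.06165 against siATF4 cells in siMESH1+siATF4 cells. Leaving out single arrays gave -0.09524 to 0.05165 for KIF11 and -0.1388 to 0.1458 for KIF23 in siMESH1 against siATF4 cells, -0.03837 to 0.1821 for KIF15 and -0.06379 to 0.0859 for KIF22 in siMESH1+siATF4 against siMESH1 cells, and -0.06282 to 0.07219 for KIF18A in siMESH1+siATF4 against siATF4 cells. The cause was not tested.

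Replicate numbers did not pair the arrays: correlations of same-numbered deviations ran from -0.191 to 0.0951, and 2 of 12 arrays were closest to their own number. With the replicate block the counts were 10 in each comparison with siNT, 3, 5 and 2 between silenced groups, and 10 in the test against the sum, and over all genes 978 in place of 980 for siMESH1 against siNT.

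Over all genes, counts of calls moved by over 1.5 times with housekeeping scaling to 2817 for siMESH1 (from 980) and 1877 for siMESH1+siATF4 (from 1154) against siNT and to 1457 (from 516) in the test against the sum. A log2 minimum of 1 gave 239, 170 and 281 for siMESH1, siATF4 (780 at 0.5) and siMESH1+siATF4 against siNT, 93 and 21 for siMESH1+siATF4 against siMESH1 (730) and siATF4 (195), 165 for siMESH1 against siATF4 (1036) and 102 against the sum. No minimum gave 4019, 3421, 4254, 3348, 1403, 4004 and 1424 in that order, and the adjusted t-test 122 for siMESH1+siATF4 against siATF4. Fits of only the groups compared, and the t-test, were not run against the sum, which needs all groups.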
